A study of Mus musculus with 8 samples.

Results

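The stem and progenitor heptad is a group of 7 transcription factors that bind together at regulatory regions of blood stem and progenitor cells: Runx1, Erg, Fli1, Gata2, Lmo2, Lyl1 and Tal1. They were followed here with Myb, Etv6 and Cbfb, other regulators of the same cells. The members were all probe sets that the platform annotation gave to exactly 1 of these 10 genes. That rule used no measured value, but the genes were listed with earlier results of these data known. The 10 genes, of 18193 on the array, had 21 such probe sets out of 34945 with 1 gene, 15 for the heptad and 6 for the other 3 genes. All 21 passed the filter on dim probe sets, which kept 19208, so each member could be tested.

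TAL1 and LYL1 are related basic helix-loop-helix factors that bind E-box sequences with an E protein as partner. LMO2 binds no DNA itself and bridges them to a GATA factor such as GATA2. ERG, FLI1 and ETV6 are ETS family factors, ETV6 being mainly a repressor, and RUNX1 binds DNA with CBFB, its non-DNA-binding partner. MYB drives the expansion of progenitors. Several of these genes are rearranged or mutated in leukaemia.

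The cells were progenitors labelled lympho-myeloid and multipotent, sorted from bone marrow of female C57BL6 mice aged 8 to 10 weeks. They lacked lineage markers and CD150 and carried Sca-1, c-Kit and CD48. There were 4 wild type samples and 4 of genotype FLT3-ITD, in which a stretch of the Flt3 receptor gene is repeated in tandem, as it often is in acute myeloid leukaemia, with 1 array per sample. The zygosity and the origin of the allele, and whether samples came from single or pooled mice, are not given in the sources used here. The p-values therefore reflect the spread among the 8 samples alone, and part of that may be technical. Replicates are numbered 1, 2, 3 and 037 in each genotype; the last is titled 1 with the tag 037, so it may repeat replicate 1. Values are given in that order.

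Values are log2 RMA expression, on which a difference of 1 is a doubling, and array medians lay between 5.98 and 6.05. FLT3-ITD replicate 1 correlated least with the other arrays (0.948 to 0.960). Replicates 1 and 037 correlated at 0.969 in wild type, below the highest correlation of either array with another. In FLT3-ITD they correlated at 0.953, the lowest value of FLT3-ITD replicate 037 with any array. Whether 037 repeats replicate 1 was not tested. The gap between the 3′ and 5′ Gapdh controls, a sign of RNA quality, was widest in FLT3-ITD replicate 037, at 2.99 against 1.82 to 2.29. Among the sorting genes the wild type and FLT3-ITD means were 9.61 and 9.14 for Kit and 9.92 and 10.98 for Cd48, while Slamf1, which encodes CD150, lay below the array medians at 4.73 and 4.51; Ly6a was not analysed here. Those of Flt3 were 10.54 and 9.37, and it fell (limma adjusted p = 0.0406). That call did not hold with the replicate number as a block (0.119), with the Gapdh difference as a covariate (0.167) or after removal of 1 sample (0.0812 to 0.150), except FLT3-ITD replicate 1 (0.00846). Cd48 rose (limma adjusted p = 0.00740; 0.0572 with the block).

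The comparison asked whether the heptad and its companions were expressed differently in FLT3-ITD and wild type progenitors. None of the 21 probe sets passed the test, which was limma with p-values adjusted by the Benjamini-Hochberg method over all 19208 tested probe sets and a threshold of 0.05. The share past the test over all probe sets was 0.416%. The lowest adjusted p among the members was 0.377, for Lmo2. With 1 probe set per gene, the one of highest mean, none of the 10 genes passed either (lowest adjusted p = 0.319, over 10762 genes), against 0.604% of all genes (0.427% higher and 0.177% lower). Over probe sets these shares were 0.297% higher and 0.120% lower.

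In direction, 12 member probe sets were lower in FLT3-ITD and 9 higher; 48.7% of all tested probe sets were lower. The median difference, FLT3-ITD minus wild type, was −0.08 over the member probe sets and 0.01 over all tested probe sets. Over the 15 heptad probe sets it was 0.01, and over the 7 heptad genes, on 1 probe set each, −0.33. At an unadjusted p under 0.05, 5 member probe sets were lower, of Lmo2, Lyl1, Gata2 (both) and Erg, where 4.09% of all tested probe sets met that rule. None was higher at that level, where 4.98% of all tested probe sets were. The genotypes did not overlap in 2 lower probe sets, of Lmo2 and Gata2, and in 2 higher ones, of Runx1 and Tal1. Over all tested probe sets that held for 2.69% in the lower and 3.33% in the higher direction. By gene, 7 of the 10 were lower, where 46.3% of all tested genes were. Gata2 and Lmo2 were lower and Tal1 higher without overlap, which held for 2.44% and 3.77% of all genes. In bulk samples fewer cells of a type and less RNA per cell cannot be told apart.

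**Figure D1:**
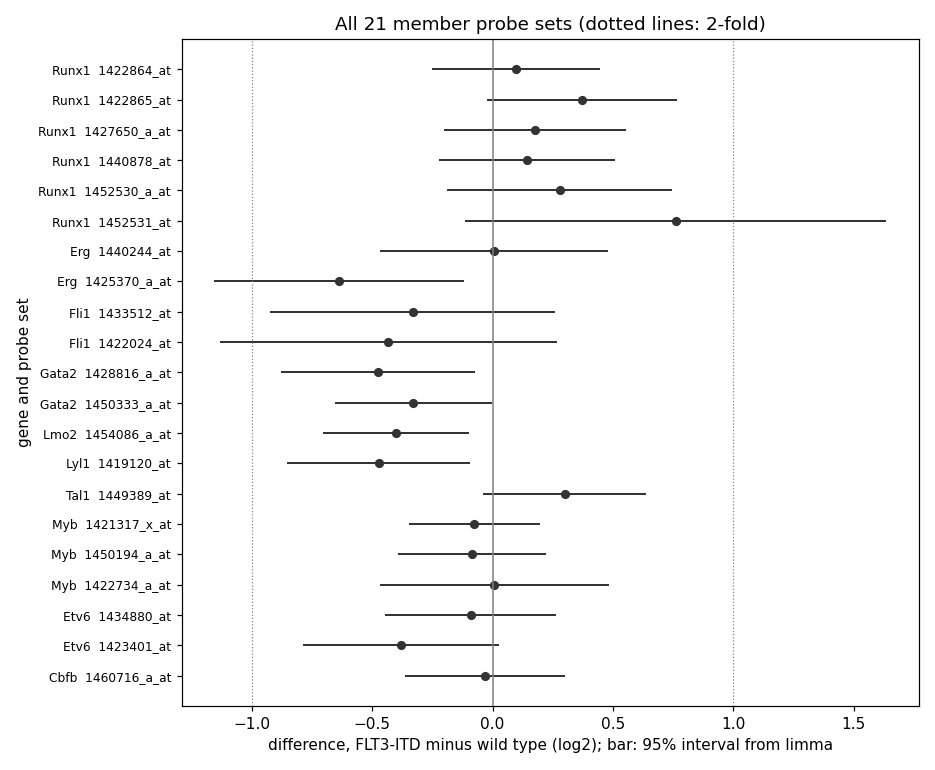
Difference between FLT3-ITD and wild type (log2, x axis) for each of the 21 member probe sets (y axis), with 4 arrays per genotype. Points are limma differences and bars their 95% intervals without adjustment for multiple tests; 18 intervals lie wholly between the dotted 2-fold lines, and 5, all below 0, do not cross 0.

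The limma 95% interval lay wholly within 1 of 0, so within a doubling or halving, for 18 of the 21 probe sets. The exceptions were 1 of Runx1, reaching 1.63, 1 of Erg, reaching −1.15, and 1 of Fli1, reaching −1.13. The 5 intervals that did not cross 0 belong to the same 5 probe sets that were lower at an unadjusted p under 0.05. These intervals were not adjusted for the number of probe sets.

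Start-site windows are printed because heptad proteins bind regulatory regions of heptad genes, and the letters can be set beside the values. The 4 genes printed were chosen with their values known. Gata2 and Lyl1 were lower on every probe set, and Runx1 and Tal1 higher on every probe set, with 1 probe set each for Lyl1 and Tal1. None of these passed the test, and Lmo2, Fli1, Etv6 and Cbfb were also lower on every probe set. The windows come from RefSeq on GRCm38.p6, run 5′ to 3′ on the gene's strand, and hold 250 bases before and 50 after an annotated start; 8 of the 10 members matched, with 13 windows, and Lmo2 and Fli1 did not. Capitals mark matches, on either strand, to letters bound by each family. These were GATAA for GATA factors, GGAAG for ETS factors, the RUNX core TGTGG and the E-box form CAGNTG. Other forms of these sites, such as GGAA followed by another letter, were not searched or marked. No matches overlap in the windows printed.

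Lyl1 (chr8:84701207-84701506, plus strand): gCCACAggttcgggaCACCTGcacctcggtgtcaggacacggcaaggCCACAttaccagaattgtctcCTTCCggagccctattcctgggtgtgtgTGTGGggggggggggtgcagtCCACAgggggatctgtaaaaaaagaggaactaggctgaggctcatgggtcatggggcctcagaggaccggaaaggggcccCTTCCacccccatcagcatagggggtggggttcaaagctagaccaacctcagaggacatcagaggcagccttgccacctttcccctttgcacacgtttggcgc
Gata2, first start (chr6:88193641-88193940, plus strand): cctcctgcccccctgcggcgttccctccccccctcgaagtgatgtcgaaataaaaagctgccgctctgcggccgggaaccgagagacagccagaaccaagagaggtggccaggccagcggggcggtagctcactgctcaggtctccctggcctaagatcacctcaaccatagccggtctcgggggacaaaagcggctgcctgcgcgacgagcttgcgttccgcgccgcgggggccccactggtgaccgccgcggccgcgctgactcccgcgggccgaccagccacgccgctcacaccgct
Gata2, second start (chr6:88198414-88198713, plus strand): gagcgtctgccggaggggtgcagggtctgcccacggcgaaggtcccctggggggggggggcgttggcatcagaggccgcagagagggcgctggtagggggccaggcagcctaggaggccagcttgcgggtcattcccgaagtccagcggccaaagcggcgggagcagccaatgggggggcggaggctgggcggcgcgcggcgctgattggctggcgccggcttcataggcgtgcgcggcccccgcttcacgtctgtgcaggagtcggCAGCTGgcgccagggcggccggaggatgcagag
Tal1, first start (chr4:115056176-115056475, plus strand): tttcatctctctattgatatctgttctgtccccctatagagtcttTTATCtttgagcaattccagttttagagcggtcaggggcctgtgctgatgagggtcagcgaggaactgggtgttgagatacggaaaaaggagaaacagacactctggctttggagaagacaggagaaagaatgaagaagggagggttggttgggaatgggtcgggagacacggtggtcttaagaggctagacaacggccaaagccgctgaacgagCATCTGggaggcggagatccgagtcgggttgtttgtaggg
Tal1, second start (chr4:115057561-115057860, plus strand): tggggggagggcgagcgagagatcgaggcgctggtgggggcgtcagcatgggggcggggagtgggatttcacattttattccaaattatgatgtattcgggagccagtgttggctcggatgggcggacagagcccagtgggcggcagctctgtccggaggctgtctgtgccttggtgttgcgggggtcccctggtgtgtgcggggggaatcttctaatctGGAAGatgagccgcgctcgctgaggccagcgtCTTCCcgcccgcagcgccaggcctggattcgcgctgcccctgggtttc
Runx1, upstream start (chr16:92826025-92826324, minus strand): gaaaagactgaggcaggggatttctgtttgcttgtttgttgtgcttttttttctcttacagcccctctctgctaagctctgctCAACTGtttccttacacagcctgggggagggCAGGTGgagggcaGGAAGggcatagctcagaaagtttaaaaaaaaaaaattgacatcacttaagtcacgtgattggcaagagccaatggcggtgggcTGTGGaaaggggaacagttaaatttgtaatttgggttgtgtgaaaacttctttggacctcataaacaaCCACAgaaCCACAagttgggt
Runx1, downstream start (chr16:92697280-92697579, minus strand): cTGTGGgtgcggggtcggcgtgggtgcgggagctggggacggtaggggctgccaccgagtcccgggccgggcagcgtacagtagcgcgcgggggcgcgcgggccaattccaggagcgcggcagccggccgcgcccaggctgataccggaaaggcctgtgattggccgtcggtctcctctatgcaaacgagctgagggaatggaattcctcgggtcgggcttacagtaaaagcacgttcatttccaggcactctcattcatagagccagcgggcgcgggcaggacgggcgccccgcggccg

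The Lyl1 window held 4 matches to the RUNX letters, 2 to the ETS letters and 1 to the E-box letters. The upstream Runx1 window held 3 for RUNX, 2 for the E-box and 1 for ETS, and the other Runx1 window 1, for RUNX. Tal1 had 1 GATA and 1 E-box match in its first window and 2 ETS matches in the second. Of the 3 Erg windows, not printed, 1 had none of the motifs, 1 an ETS and a RUNX match, and 1 a GATA, an ETS and an E-box match. The single windows of Etv6, Cbfb and Myb, also not printed, held 2 ETS, 4 ETS and 1 E-box match. The first Gata2 window had none of the 4 motifs and the other 1 E-box match. Over all 13 member windows, 2 held GATA letters, 7 ETS, 4 RUNX and 6 E-box. Over 32851 windows of the same length in the table these shares were 25.4%, 71.4%, 55.9% and 51.4%. A match is a description of the letters only, and which start site was used was not measured here.

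Lmo2, the bridging subunit, had the smallest p of the members. Its single probe set (1454086_a_at) read 11.83, 11.99, 12.07 and 12.20 in wild type replicates 1, 2, 3 and 037. In FLT3-ITD it read 11.58, 11.59, 11.76 and 11.54. All 4 FLT3-ITD arrays lay below all wild type arrays, with FLT3-ITD replicate 3 the closest. The means were 12.02 ± 0.15 and 11.62 ± 0.09 (SD, n = 4 each; exact two-sided permutation p = 0.0286, the smallest that 4 against 4 can give). The difference of −0.40 ± 0.13 (SE) leaves 75.7% of the wild type level and did not pass limma (adjusted p = 0.377).

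Lyl1, a DNA-binding partner of LMO2, read 9.59, 9.39, 9.97 and 9.93 in wild type. The FLT3-ITD arrays read 9.40, 9.15, 9.31 and 9.12. The genotypes met at their edges: FLT3-ITD replicate 1 lay just above wild type replicate 2. The difference was −0.47 ± 0.17, or 72.0% of wild type (limma adjusted p = 0.434; exact permutation p = 0.0571).

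Gata2, the GATA factor of the complex and a regulator of stem cell maintenance, was read by a pair of probe sets, both lower in FLT3-ITD. The brighter one (1428816_a_at) read 8.84, 8.85, 9.02 and 8.99 in wild type and 8.74, 8.16, 8.72 and 8.17 in FLT3-ITD. FLT3-ITD replicates 2 and 037 were far below the wild type arrays and replicates 1 and 3 just below them, with no overlap. The difference was −0.48 ± 0.18 (limma adjusted p = 0.460; exact permutation p = 0.0286). The other probe set (1450333_a_at) read 8.11, 8.34, 8.42 and 8.51 in wild type and 8.02, 7.81, 8.11 and 8.11 in FLT3-ITD. There the genotypes overlapped by 1 array, wild type replicate 1, and the difference was −0.33 ± 0.14 (limma adjusted p = 0.543). Averaged over both probe sets, Gata2 differed by −0.40 ± 0.14 without overlap (limma adjusted p = 0.316).

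Tal1, the other helix-loop-helix member of the complex, had the opposite sign. Its probe set (1449389_at) read 7.30, 7.32, 7.27 and 7.02 in wild type and 7.53, 7.46, 7.33 and 7.80 in FLT3-ITD. All FLT3-ITD arrays were above all wild type arrays, although FLT3-ITD replicate 3 at 7.33 was only just above wild type replicate 2 at 7.32. The difference was 0.30 ± 0.15, or 1.23-fold (limma adjusted p = 0.597; exact permutation p = 0.0286). With the Gapdh difference as a covariate it was 0.16.

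**Figure D2:**
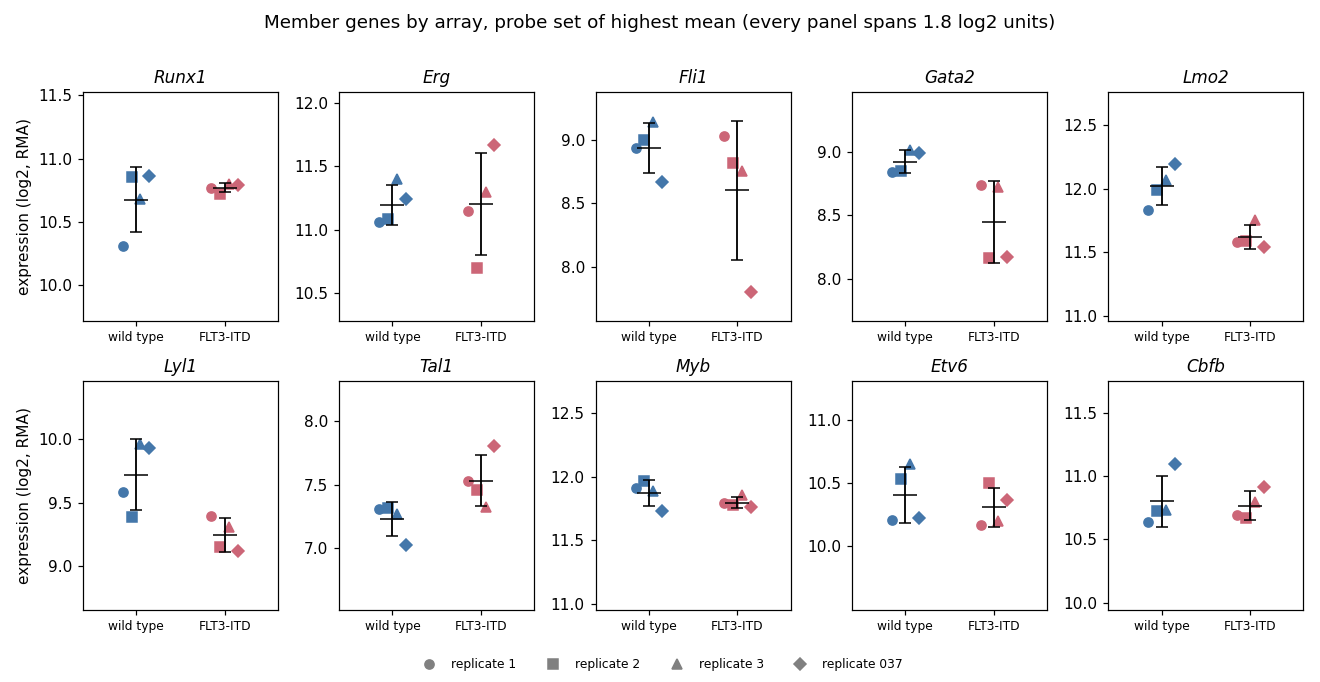
Expression (log2 RMA, y axis) of each member gene on the brightest of its probe sets, in the 4 wild type and 4 FLT3-ITD arrays; marker shape gives the replicate, horizontal lines the mean and bars 1 SD. Gata2 and Lmo2 are lower and Tal1 higher in every FLT3-ITD array than in every wild type array, while the other 7 genes overlap.

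Because Lyl1 and Tal1 are relatives that fill the same place in the complex, their change relative to each other was compared within each array. The same was done for the ETS relatives Erg and Fli1 and for the partners Runx1 and Cbfb. The offset between the probe sets of a pair has no meaning in itself, so only its change between genotypes is given. These 3 pairs were chosen by family or partnership, with the values known.

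Lyl1 minus Tal1 ranged from 2.07 to 2.91 in wild type and from 1.32 to 1.98 in FLT3-ITD, without overlap. The means were 2.49 ± 0.38 and 1.72 ± 0.29 (SD, n = 4 each), a shift of −0.77 (exact permutation p = 0.0286, and 0.0857 when adjusted over the 3 pairs). The lowest value belonged to FLT3-ITD replicate 037. Leaving out each array in turn gave −0.91 to −0.63.

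Erg minus Fli1 shifted by 0.34 (exact permutation p = 0.686), with FLT3-ITD replicate 037 at 3.86 and the other FLT3-ITD arrays at 1.88 to 2.55. Without that array the shift was −0.08. Runx1 minus Cbfb shifted by 0.13 (exact permutation p = 0.314), from −0.33 to 0.12 in wild type and −0.12 to 0.08 in FLT3-ITD, and by 0.34 when averaged over probe sets.

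**Figure D3:**
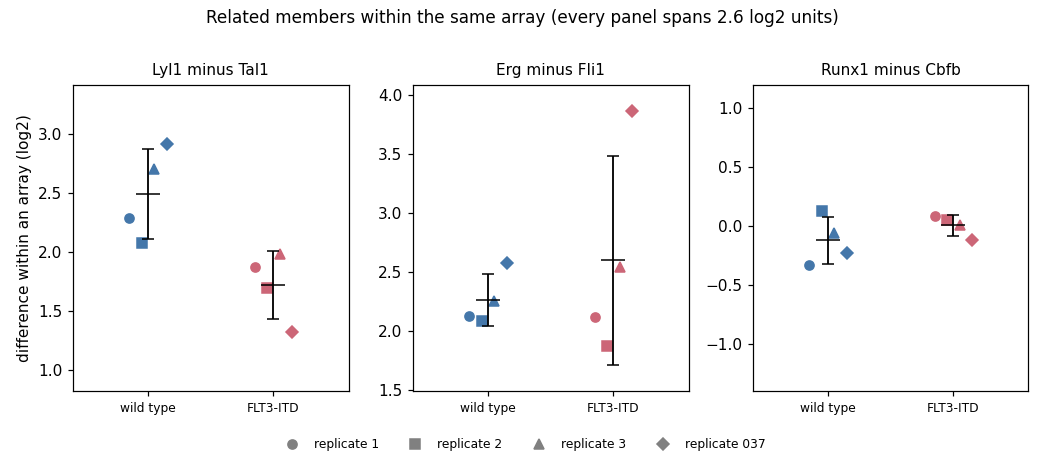
Difference between 2 member genes within an array (log2, y axis) for 3 related pairs, with wild type and FLT3-ITD arrays apart; marker shape gives the replicate, lines the mean and bars 1 SD. Lyl1 minus Tal1 is at or below 1.98 in FLT3-ITD and at or above 2.07 in wild type, and the other pairs overlap.

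Erg, an ETS factor needed for stem cell maintenance, was read by a pair of probe sets. The brighter one (1440244_at) read 11.06, 11.08, 11.40 and 11.25 in wild type and 11.15, 10.70, 11.30 and 11.67 in FLT3-ITD. Its FLT3-ITD arrays lay on both sides of the wild type ones, and the difference was 0.01 ± 0.21 (limma adjusted p = 0.996), with a sign that turned under several alternatives. The other (1425370_a_at) read 9.83, 10.54, 10.34 and 9.87 in wild type and 9.23, 9.66, 9.91 and 9.21 in FLT3-ITD.

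On that second probe set FLT3-ITD replicates 1 and 037 were the lowest, and only FLT3-ITD replicate 3 reached the wild type range. The difference was −0.64 ± 0.23, or 64.3% of wild type (limma adjusted p = 0.440; exact permutation p = 0.0857). The gap between both Erg probe sets, a comparison chosen after the values were seen, had means of 1.06 ± 0.36 for wild type and 1.70 ± 0.62 for FLT3-ITD (SD over 4 arrays; exact permutation p = 0.171), so their responses were not shown to differ.

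Fli1, the relative of Erg, had negative differences on both probe sets. The brighter one (1433512_at) read 8.93, 9.0, 9.14 and 8.67 in wild type and 9.03, 8.82, 8.75 and 7.80 in FLT3-ITD. One array, FLT3-ITD replicate 037, lay far below the rest. The difference of −0.33 ± 0.26 (limma adjusted p = 0.763) ran from −0.48 to −0.07 without 1 array. It was −0.07 without FLT3-ITD replicate 037, which was also the array with the highest Gapdh difference. The other probe set (1422024_at) differed by −0.43 ± 0.31 and by −0.23 without it, from 8.22 to 9.15 in wild type and 7.66 to 8.93 in FLT3-ITD. Removing wild type replicate 2 gave −0.29, and removing FLT3-ITD replicate 3 gave −0.65. With the Gapdh difference as a covariate the differences were −0.03 and −0.15.

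Etv6, the ETS repressor needed by stem cells of the adult marrow, had a pair of probe sets. One (1423401_at) read 10.07, 10.21, 10.28 and 10.21 in wild type and 9.61, 9.85, 10.26 and 9.52 in FLT3-ITD. FLT3-ITD replicate 3 lay within the wild type range and the other 3 FLT3-ITD arrays below it, a difference of −0.38 ± 0.18 (limma adjusted p = 0.576). The lowest array was FLT3-ITD replicate 037, and with the Gapdh difference as a covariate the difference was −0.22. The brighter one (1434880_at) ranged from 10.21 to 10.65 in wild type and 10.17 to 10.50 in FLT3-ITD and differed by −0.09 ± 0.16. Without 1 array that difference ran from −0.16 to −0.01, the latter without wild type replicate 3.

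Runx1, which encodes the DNA-binding subunit of core binding factor, had the most probe sets, 6, and all 6 differences were positive, from 0.10 to 0.76. They share the RNA of the same 8 arrays and are not independent. The brightest (1422864_at) read 10.31, 10.85, 10.68 and 10.86 in wild type and 10.77, 10.72, 10.80 and 10.80 in FLT3-ITD, where the arrays were nearly equal. Its difference was 0.10 ± 0.15 (limma adjusted p = 0.894). Without 1 array it ran from −0.03, without wild type replicate 1, to 0.16.

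The Runx1 probe set without overlap (1422865_at) read 9.70, 9.95, 9.91 and 10.01 in wild type and 10.71, 10.12, 10.16 and 10.07 in FLT3-ITD. One array, FLT3-ITD replicate 1, stood well above the others. The difference was 0.37 ± 0.17 (limma adjusted p = 0.577), 0.22 without that array and up to 0.44 without another. The largest difference, 0.76 ± 0.39 (1452531_at; limma adjusted p = 0.609), came with the widest spread among the members, 7.73, 8.38, 6.45 and 6.98 in wild type and 8.31, 7.86, 8.53 and 7.88 in FLT3-ITD. Without wild type replicate 3, the lowest array, it was 0.45, and without another array up to 1.09. The other 3 probe sets, all with overlap, differed by 0.14 (1440878_at), 0.17 (1427650_a_at) and 0.28 (1452530_a_at). Without 1 array the first ran from 0.03 to 0.23, the second from 0.07 to 0.27 and the third from 0.15 to 0.40. The lowest values came without wild type replicate 037, wild type replicate 1 and FLT3-ITD replicate 2, in that order. Averaged over 6 probe sets, Runx1 differed by 0.30 ± 0.13 (limma adjusted p = 0.455), with 8.55 to 8.98 in wild type and 8.89 to 9.11 in FLT3-ITD.

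**Figure D4:**
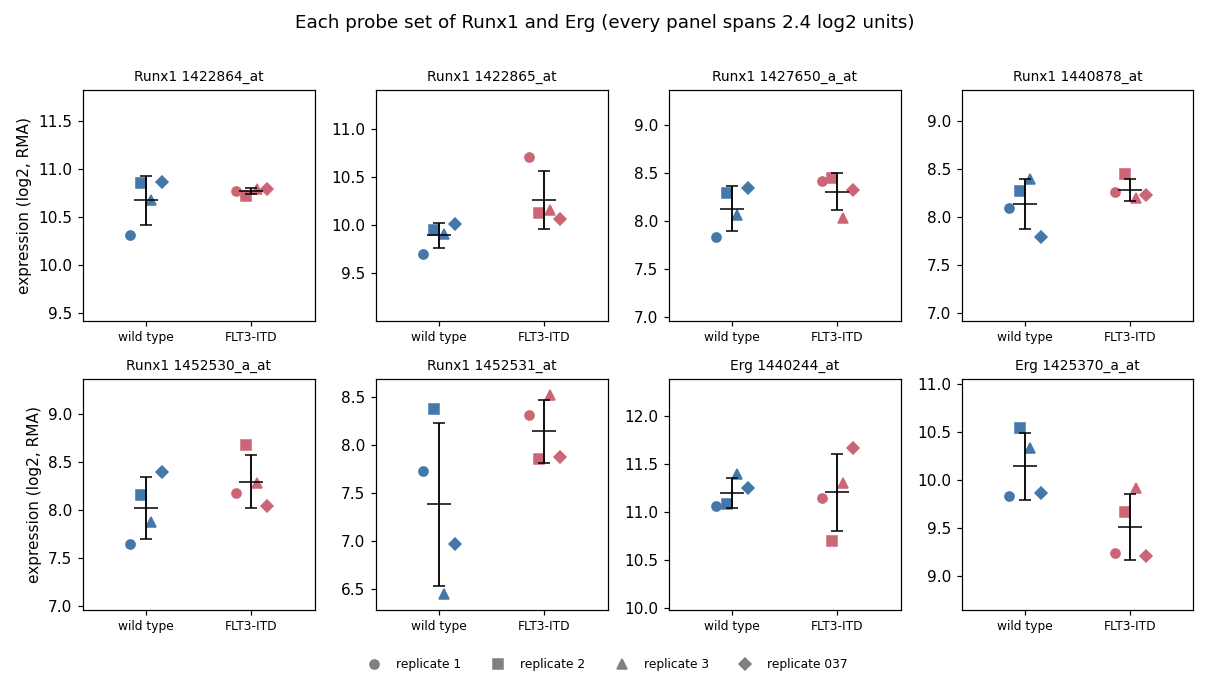
Expression (log2 RMA, y axis) on each of the 6 Runx1 and 2 Erg probe sets in the 4 wild type and 4 FLT3-ITD arrays; marker shape gives the replicate, lines the mean and bars 1 SD. The mean is higher in FLT3-ITD on every Runx1 probe set, with overlap on all but 1422865_at, and the Erg probe sets differ by 0.01 and −0.64.

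Cbfb, the partner that stabilises RUNX1 on DNA, read 10.64, 10.73, 10.74 and 11.09 in wild type and 10.69, 10.67, 10.79 and 10.92 in FLT3-ITD. Replicate 037 was the highest in both genotypes. The difference was −0.03 ± 0.14, with a 95% interval of −0.36 to 0.29 (limma adjusted p = 0.970).

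Myb had differences near 0 on all 3 probe sets. The brightest (1421317_x_at, a type open to cross-hybridisation) read 11.91, 11.97, 11.89 and 11.73 in wild type and 11.80, 11.78, 11.86 and 11.76 in FLT3-ITD. The arrays of both genotypes lay in 1 narrow range, and the difference was −0.08 ± 0.12 with a 95% interval of −0.35 to 0.19 (limma adjusted p = 0.890). The other probe sets differed by −0.09 ± 0.135 (1450194_a_at) and 0.01 ± 0.21 (1422734_a_at). For Myb and Cbfb the interval therefore excludes a doubling or halving at the measured probe sets.

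The members also varied among arrays of 1 genotype. The SD over 4 arrays had a median of 0.20 in both genotypes, and reached 0.85 in wild type and 0.57 in FLT3-ITD. Wild type replicate 1 was the lowest wild type array on 13 of the 21 probe sets. Among the FLT3-ITD arrays replicate 037 was the lowest on 10 and replicate 3 the highest on 10. Each FLT3-ITD array was below the wild type mean on 10 to 13 of the 21 probe sets.

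Other genes of the same complexes and families were read from lists, each gene on its probe set of highest mean. Of 16 tested complex partners, 0 passed limma (lowest adjusted p = 0.280), 2 were higher and 2 lower at an unadjusted p under 0.05, and the median difference was −0.04. Those with the smallest p were Ep300, a histone acetyltransferase, at 0.65 ± 0.19, and Kdm1a, a histone demethylase that acts with repressor complexes, at 0.59 ± 0.18, or 0.32 when averaged over its probe sets. Over all tested genes the median difference was 0.02, and 5.74% were higher and 3.84% lower at an unadjusted p under 0.05. The 2 lower partners were Ldb1, which binds LMO2 in the complex, at −0.40 without overlap (limma adjusted p = 0.509), and Ssbp2, a binding partner of LDB1, at −0.55 (limma adjusted p = 0.424); these 2 were named after their values were seen.

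Of 10 tested family relatives, 0 passed limma, 0 were higher and 1 lower at an unadjusted p under 0.05, and the median was −0.21. Etv5, an ETS factor induced by ERK signalling, read −1.29 ± 0.50 (limma adjusted p = 0.463), and Elk3, an ETS repressor, −0.34 ± 0.15 without overlap (limma adjusted p = 0.538). Etv5 was at −0.83 with the Gapdh covariate. Elk3 ran from −0.41 to −0.21 without 1 array, the latter without FLT3-ITD replicate 1. Gata1 and Gata3, named here as relatives of Gata2, were too dim to be tested.

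Of 19 tested textbook targets of the heptad and Myb, 0 passed limma, 1 was higher and 4 lower at an unadjusted p under 0.05, and the median was 0.01. Angpt1, a ligand of the receptor TIE2, read −0.87 ± 0.19 without overlap (limma adjusted p = 0.124). Hoxa9, a homeobox factor of stem cells and leukaemia, read −0.70 ± 0.19 without overlap (limma adjusted p = 0.239). Averaged over its probe sets, Hoxa9 was at −0.72 and passed (limma adjusted p = 0.0376).

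**Figure D5:**
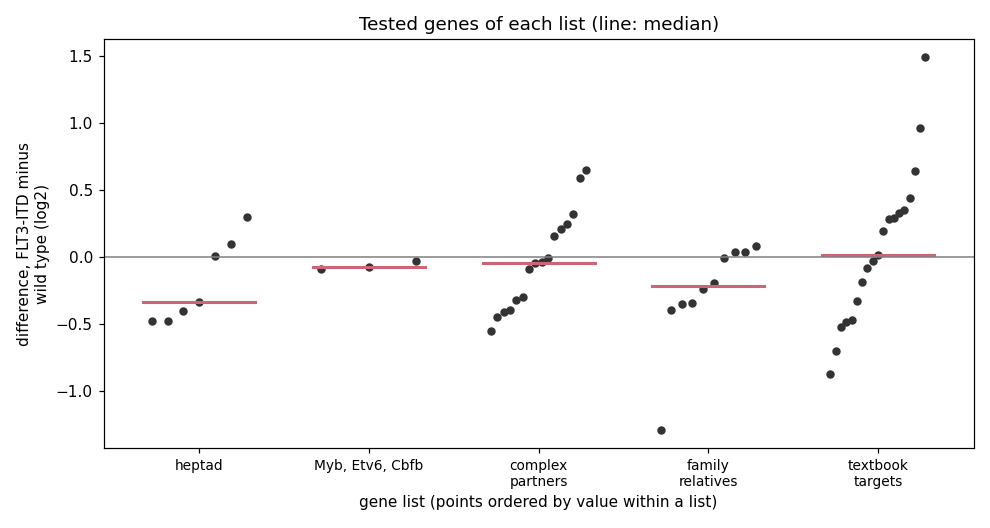
Difference between FLT3-ITD and wild type (log2, y axis) for each tested gene of the 7 heptad genes, the 3 added regulators, 16 complex partners, 10 family relatives and 19 textbook targets (x axis). Each point is a gene on its probe set of highest mean and red lines are medians, from −0.33 for the 7 heptad genes (0.01 over all 15 heptad probe sets) to 0.01 for the targets; no gene shown passed limma after adjustment.

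Several heptad factors are also active in erythroid, megakaryocytic, mast and endothelial cells, so markers of these were read beside them. The mean over 8 erythroid markers was 5.73 to 6.26 in wild type and 5.13 to 5.62 in FLT3-ITD, lower without overlap. Of the 5 tested, Slc4a1 and Hemgn fell (limma adjusted p = 0.0336 and 0.0286). Over all tested genes 0.177% were lower past the test. Slc4a1 passed the filter only through wild type, where it read 7.68, 7.37, 6.54 and 7.16. Its FLT3-ITD values of 5.08, 4.37, 5.89 and 5.02 all lay below the array medians, so its fall is a description only. Gata1 lay below the array medians in both genotypes at 4.59 and 4.53. Megakaryocyte markers averaged 5.33 to 5.90 and 5.32 to 5.36 over 7 genes, and mast cell and basophil markers 5.26 to 5.61 and 5.0 to 5.37 over 7. The megakaryocyte value of 5.90 was that of wild type replicate 2. There Pf4, too dim to be tested, read 8.09 against 4.92 to 5.26 in the other wild type arrays. Endothelial markers averaged 5.96 to 6.08 and 5.92 to 6.13 over 8. Of the tested members of these last 3 lists, 2, 3 and 3, none passed limma, and none was past an unadjusted p of 0.05.

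Markers of myeloid and lymphoid cells were read as well. Dendritic cell markers averaged 6.59 to 6.87 in wild type and 8.74 to 9.37 in FLT3-ITD over 8 genes, with 5 of 6 tested risen by limma. The risen ones were Irf8, the MHC class II genes H2-Aa, H2-Ab1 and H2-Eb1, and Cd74, the MHC class II invariant chain. Over all tested genes 0.427% were higher past the test. Siglech differed by −0.02, and Itgax and Batf3 were too dim to be tested. Monocyte and macrophage markers averaged 6.71 to 7.29 and 7.84 to 8.39 over 5 genes, with 1 of 4 tested, Ccr2, risen. In wild type replicates 1, 2 and 3 Ccr2 lay below the array medians, at 5.37, 3.68 and 5.71. Neutrophil markers averaged 6.94 to 8.61 and 5.44 to 8.00 over 7 genes, with none of 6 past the adjusted test and 3 lower at an unadjusted p under 0.05. B cell markers averaged 5.25 to 5.50 and 5.31 to 5.38 over 5 genes, and T and NK cell markers 5.38 to 5.58 and 5.58 to 5.97 over 4. The part of any of these cells in the members' values was not tested.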

How the data were processed

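RNA was amplified before labelling, per the labels' protocols. Deposited values were log2 expression per probe set, made by the authors with RMA per the submitters' processing notes (version not given in the sources used here); RMA corrects background, brings arrays to 1 distribution and summarises probes, and can understate changes at low signal. Signal over background was not analysed here, and the number of arrays limits the precision. Of 45101 probe sets, 34945 had exactly 1 gene in the platform annotation of 2016 and 932 several; 34741 symbols were updated through the Entrez ID. Probe sets above the array median on at least 4 of the 8 arrays were fitted with limma 3.58.1 in R 4.3.3, with no covariate, and p-values were adjusted over all of them; the same was done with 1 probe set per gene, the one of highest mean. Exact permutation tests, two-sided, were run over the samples for single values. The fit was tested on simulated data. Python 3.11.15 and matplotlib 3.10.9 were used for lists and figures. Members, lists, pairs and tests were chosen with earlier results of these data known. Named genes were every member, the sorting genes, and, in the lists of partners, relatives and targets, the called genes or, with none called, the 2 with the smallest p. Ldb1, Ssbp2, Gata1, Gata3 and the cell type markers named fall outside this rule and were named after their values were seen. Alternatives covered replicate numbers, the tag 037, normalization, filter, variance model, RNA quality, probe set choice and removal of each sample.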

Additional observations from a re-analysis of the deposited data

Results flagged for a closer look

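In 42 groups of 4 values, the 21 member probe sets in each genotype, 2 had an array that stood well away from the rest. About 1 group in 20 does so by chance. On Runx1 probe set 1422865_at FLT3-ITD replicate 1 was the highest at 10.71, with the other FLT3-ITD arrays at 10.07 to 10.16. On the Tal1 probe set wild type replicate 037 was the lowest at 7.02, with the others at 7.27 to 7.32.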

How the results depend on the processing

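No member probe set or gene passed limma under any alternative (18 at probe set level, 19 at gene level); the lowest adjusted p was 0.113, for Lmo2 as a gene with an intensity trend and robust variance (0.113 to 0.658 over its alternatives). Of 31 differences of single member genes or probe sets, 24 kept their sign throughout, among them those of Lmo2, Lyl1, Gata2, Fli1 and Tal1. The replicate block, the tag 037 covariate, the filters and the variance model leave a difference unchanged, so no sign could turn there. The brightest probe set of a gene also counts among the 31 as the gene. Over the alternatives Lmo2 ran from −0.47 to −0.34 and Tal1 from 0.16 to 0.37. Over all probe sets 57 were higher and 23 lower; without 1 sample these were 37 to 61 and 3 to 15. Over genes they were 46 and 19, and without 1 sample 29 to 47 and 2 to 10; each of the 8 removals took the lower genes to 10 or fewer, the fewest without wild type replicate 2 or 3. With the replicate block 25 probe sets were higher and 4 lower, and 19 genes and 3. Same-numbered samples deviated together only weakly (r = 0.03, 0.03, 0.07 and 0.09 for numbers 1, 2, 3 and 037). FLT3-ITD replicates 1, 3 and 037 were each closest to their own number. FLT3-ITD replicate 2 was slightly closer to wild type replicate 3 (r = 0.04). With so few samples, these values cannot show whether same-numbered samples were handled together. Array weights gave 92 and 44 probe sets and 30 lower genes. Lower probe sets numbered 7 with the tag 037 as a covariate, 14 with samples 1 and 037 averaged, 7 with no filter and 2 with the Gapdh covariate, which left 3 lower genes.

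Signs changed for Erg 1440244_at, Myb 1422734_a_at, Runx1 1422864_at and Cbfb, which had differences of 0.10 or less in size, and for Erg minus Fli1 at 0.34; the cause was not tested. The Erg probe set 1440244_at was at −0.077 with samples 1 and 037 averaged, −0.0022 with quantile normalization repeated, −0.051 with array weights (−0.044 at gene level) and −0.20 with the Gapdh covariate, and the mean over Erg probe sets at −0.32. The Myb probe set 1422734_a_at was at −0.029 with quantile normalization and −0.028 with the Gapdh covariate. Without 1 sample, Erg ran from −0.15 to 0.17, this Myb probe set from −0.083 to 0.19, Runx1 1422864_at from −0.026 to 0.16 (negative without wild type replicate 1) and Cbfb from −0.085 to 0.066 (positive without wild type replicate 037). Erg minus Fli1 was at −0.17 with the Gapdh covariate and ran from −0.083 to 0.58 without 1 sample. Repeating or centring the normalization moved the median of all probe sets by −0.01 and 0.02.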
